A study of Arabidopsis thaliana with 8 samples.

Results

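The mitochondrial DNA insertion of chromosome 2 is a stretch of the Arabidopsis thaliana nuclear genome that repeats the mitochondrial genome inside the pericentromere. It was followed here through all 699 of 238296 windows that lie within positions 3200001 to 3550000 of chromosome 2 (TAIR10). The windows are 1000 bp long and start every 500 bp, so each shares 500 bp and the reads in it with the next. Of the 699 windows, 539 lay wholly within 3240001 to 3510000 and are called the insertion. A further 138 formed the flanks, 69 up to 3235000 on the left and 69 from 3515001 on the right, and 22 lay between insertion and flanks. Membership was set by position, not by depth, but the bounds were chosen with earlier results of these data known.

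The series asked how MBD7 binds DNA, by chromatin immunoprecipitation and sequencing (ChIP-seq) of seedlings 14 days old, grown at 23 °C with 16 h of light. WT plants, whose titles carry the name 35S-SUC2, gave 2 input and 2 Myc ChIP libraries, and plants of the line MBD7-5, genotype proMBD7::gMBD7:4xMYC, gave 2 of each as well. The tagged protein was driven by the MBD7 promoter, seedlings were pooled by weight, and nuclei were extracted before the chromatin was sheared. The labels name an Invitrogen Myc antibody for WT ChIP and a Millipore one for MBD7 ChIP, so genotype and antibody cannot be told apart between the ChIP groups. Whether the 2 replicates of a group are separate cultures is not in the labels, and the p-values cover the spread between libraries alone, possibly a technical one.

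MBD7 belongs to the methyl-CpG-binding domain proteins, which recognise methylated cytosine in CG sites, and the pericentromere is the densely methylated, repeat-rich part of a plant chromosome. Plant cells hold many copies of the mitochondrial genome, which is largely free of that methylation, whereas mitochondrial DNA that has moved to the nucleus is known to become methylated. Because the insertion is nearly identical to the organelle genome, reads of either can align to it, and the reference assembly is known to hold a shortened version of the insertion. Nuclear and organelle DNA cannot be told apart in the counts of these windows, and the part of each was not tested.

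The libraries differed in depth. Table totals were 4971029 and 7450486 counts in WT ChIP and between 19224696 and 31459707 counts in the 6 others. Over the windows of the insertion the correlation between replicates was 0.973 for the WT inputs, 0.985 for the MBD7 inputs, 0.859 for WT ChIP and 0.916 for MBD7 ChIP (Pearson's r), a description of windows that share reads. Windows over the MBD7 gene itself stood at 12.9 ± 0.644 times the flank median in MBD7 input against 1.30 ± 0.137 in WT input (SD, n = 2). Of its 7 windows, 6 were higher in MBD7 input by edgeR's quasi-likelihood test, beside 0.0107% of all windows.

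The insertion stood far above its flanks in the inputs of both genotypes, and higher in the tagged line. Its windows held medians of 557 and 529 counts in the WT inputs and 827 and 639 in the MBD7 inputs, where the flank medians were 48.5 and 37, and 36 and 27. Set over the flank median of the same library, the insertion was 11.5 and 14.3 times as deep in WT input and 23.0 and 23.7 times as deep in MBD7 input. The genotypes did not overlap, and each MBD7 input was deeper than both WT inputs. The group means were 12.9 ± 1.99 and 23.3 ± 0.491 (SD, n = 2), with a two-sided exact permutation p = 0.333, the smallest that 2 against 2 libraries allow. With the rest of the chromosome 2 pericentromere as reference in place of the flanks, the values were 9.51 and 14.4, and with means over windows in place of medians they were 6.99 and 11.9.

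Nearly the whole insertion took part in that excess. In all 4 inputs, 535 of 539 windows exceeded 5 times the flank median and 538 exceeded 3 times it, while 204 exceeded the deepest flank window, at 3549001 near the right end of the region, with 592 and 564 counts for the WT inputs and 488 and 386 for the MBD7 inputs. Both MBD7 inputs lay above both WT inputs, over the flanks, in 538 of 539 windows. All windows of a library share the same flank median as divisor, so they do not count separately. How many windows of the whole genome separate in this way was not counted. A list of 12 nuclear genes outside the insertion also stood higher over the flanks in MBD7 input, with a median of 1.93 against 1.57 in WT input. The count of 538 is therefore not read as particular to the insertion. The flanks themselves were lower in MBD7 input. In edgeR's fit the median log2 fold change, MBD7 over WT input, was -0.29 in the flanks and 0.52 in the insertion. Across the genome 1908 windows held over 10 times the median input level. Of these, 384 were in the insertion, 1 lay between insertion and flanks, and none was in the flanks.

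The picture in the Myc precipitations differed between WT ChIP and MBD7 ChIP, which differ in genotype and in antibody. In WT ChIP the insertion held a median of 56 and 46 counts per window over flank medians of 5 and 3, which is 11.2 and 15.3 times the flanks. These values overlapped those of WT input. In MBD7 ChIP it held 125 and 153 counts over flank medians of 26 and 22, which is 4.81 and 6.95 times the flanks. Both MBD7 ChIP libraries lay below every other library. Group means were 13.3 ± 2.92 in WT ChIP and 5.88 ± 1.52 in MBD7 ChIP (SD, n = 2), and MBD7 ChIP against WT ChIP, like MBD7 ChIP against MBD7 input, gave a two-sided exact permutation p = 0.333, the smallest possible. With means over windows in place of medians the values were 6.24 and 2.10. The flank medians of WT ChIP rest on few counts, so its ratios are the least precise.

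**Figure D1:**
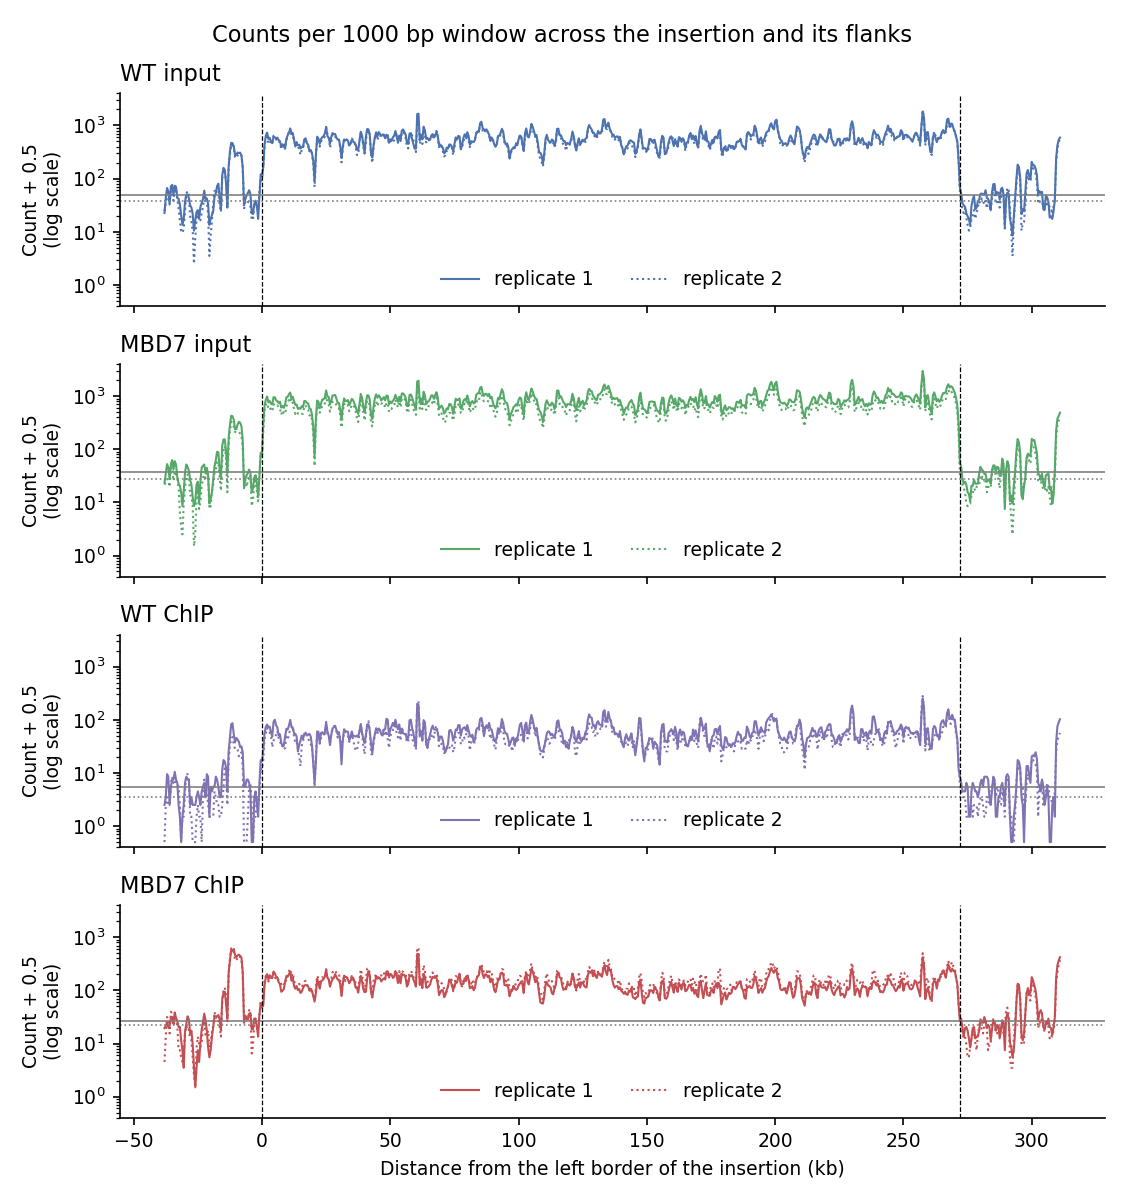
Counts per 1000 bp window (y axis, log scale, 0.5 added) along the region, with distance from the left border in kb on the x axis, by group; the grey lines are flank medians and the dashed lines the borders. The insertion forms a plateau with steep edges in all 8 libraries, and the step is lowest in MBD7 ChIP, at 4.81 and 6.95 times the flanks.

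**Figure D2:**
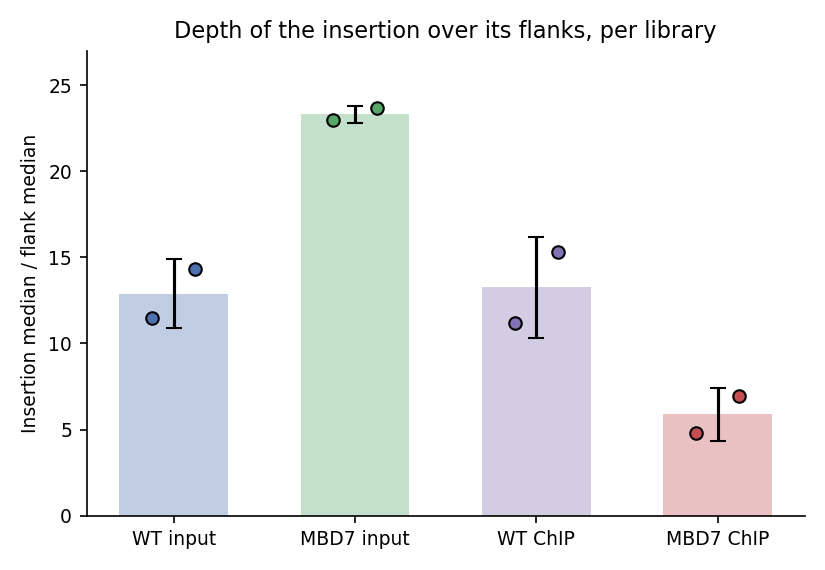
Median count of the insertion over the median count of its flanks in each library (points), with the mean of each group (bars) and the SD of 2 libraries (error bars). MBD7 input sits at 23.0 and 23.7, the WT libraries between 11.2 and 15.3, and MBD7 ChIP at 4.81 and 6.95.

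As a share of all counts, the insertion took 1.01% and 1.21% of the WT inputs and 1.74% and 1.87% of the MBD7 inputs. The genotypes again did not overlap. In the ChIP libraries its share was lower, 0.440% and 0.548% in WT and 0.286% and 0.370% in MBD7. Each ChIP library lay below all 4 inputs, and the MBD7 ChIP pair lay below the WT ChIP pair. A share depends on the rest of its library. Copy-rich windows elsewhere, over 10 times the median input level, took 31.5% to 41.9% of counts in the inputs and 71.9% to 77.4% in ChIP. The share of the chromosome arms was 35.3% to 43.1% in the inputs and 9.15% to 11.5% in ChIP. A lower share is therefore not read as depletion of the insertion.

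The edges of the plateau fell in the same windows in all 4 inputs. Walking inward from the inner end of each flank, the first of 3 windows in a row above 3 times the flank median was 3238501 to 3239500 on the left and, from the other side, 3509501 to 3510500 on the right. At the left edge, the counts of the window before it, of that window and of the next, all overlapping by 500 bp, were 112, 163 and 437 in WT input replicate 1 and 77, 299 and 662 in MBD7 input replicate 1. At the right edge the corresponding counts were 68, 215 and 500, and 54, 289 and 661. Counts rose at each of these steps in every input, and the second replicates gave 93, 173 and 417 (WT) and 71, 213 and 545 (MBD7) on the left, and 57, 214 and 474 and 34, 204 and 516 on the right. In MBD7 ChIP replicates 1 and 2, the last window outside the left edge held 47 and 55 counts and the window at 3239001 held 125 and 151.

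MBD7 ChIP was then compared with MBD7 input window by window. The median counts per window of the 2 ChIP libraries, summed and divided by those of the 2 inputs without scaling, gave 0.190 in the insertion (0.151 to 0.239 over the 4 pairs of libraries), against 0.762 in the flanks (0.611 to 0.963) and 0.196 in the chromosome arms (0.159 to 0.25). The flanks stood 3.88 times above the arms, the rest of the chromosome 2 pericentromere 2.33 times, and the insertion at 0.966 times. In none of the 4 pairs did insertion and flanks overlap. Copy-rich windows elsewhere in the genome stood at 6.96 times the arms in MBD7 and at 4.76 times in WT.

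With edgeR's quasi-likelihood test, trimmed-mean (TMM) scaling and Benjamini-Hochberg adjusted p below 0.05, 238 of the 539 insertion windows were lower and 2 were higher in MBD7 ChIP than in MBD7 input. Over all 232963 windows tested, 6.19% were lower and 18.1% higher. MBD7 input medians were 827 and 639 counts in insertion windows and 63 and 44 over all windows. Deeper windows pass the threshold at smaller changes. Shares called, here and in the comparisons below, are therefore not on the same scale. The median log2 fold change of the insertion was -0.41 (quartiles -0.61 and -0.24), with medians of -0.10 over all windows and -0.25 in the arms. In the flanks 133 windows were tested, of which 122 were higher, with a median of 1.64, and in the rest of the chromosome 2 pericentromere 6592 of 10673 were higher, with a median of 1.08. The difference of the medians, insertion minus flanks, was -2.05, a value that the scaling of the libraries leaves nearly unchanged by construction. Without MBD7 ChIP replicate 1 the count of lower windows was 124, and scaling by library size alone gave 538 lower and 0 higher. That scaling moves the median of all windows to -2.15, and relative to the median of all windows, which removes the scaling, the insertion lay at -0.31.

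The flank level gives a measure of how much of the insertion's count a stretch as deep as its surroundings would hold. The flank median was 8.71% and 6.99% of the insertion median in the WT inputs and 4.35% and 4.23% in the MBD7 inputs. In MBD7 ChIP it was 20.8% and 14.4%, and in WT ChIP 8.93% and 6.52%. The MBD7 ChIP values lay above those of every other library. With the flank median subtracted, the insertion kept 791 and 612 counts per window in MBD7 input and 99 and 131 in MBD7 ChIP. The ratio of that remainder was 0.164 (0.125 to 0.214), or 0.835 times the arms. That the nuclear copy is as deep as its flanks, in input and in ChIP, is an assumption that was not tested. It does not allow for the shortened version of the insertion in the reference assembly.

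The untagged precipitation had no such gap between insertion and flanks. In WT the ratio of ChIP to input counts was 0.0939 in the insertion (0.0826 to 0.106) and 0.0936 in the flanks (0.0619 to 0.135), 1.71 and 1.70 times the arms. The difference of the median log2 fold changes, insertion minus flanks, was -0.07. In edgeR's quasi-likelihood test with adjusted p below 0.05, 85 of 539 insertion windows were higher in WT ChIP than in WT input and 0 were lower, where 5.13% and 0.456% of all windows were called. The median log2 fold change was 0.44 in the insertion, 0.50 in the flanks with 9 of 133 higher, and 0.32 in the rest of the chromosome 2 pericentromere. The count of higher windows rests on each of the 4 WT libraries. It was 13 without WT input replicate 1, 44 without WT input replicate 2, 30 without WT ChIP replicate 1 and 39 without WT ChIP replicate 2. Scaling by library size alone turned the direction, with 0 higher, 539 lower and a median of -1.22, where the median of all windows was -1.74. Relative to the median of all windows, which removes the scaling, the insertion lay at 0.53.

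**Figure D3:**
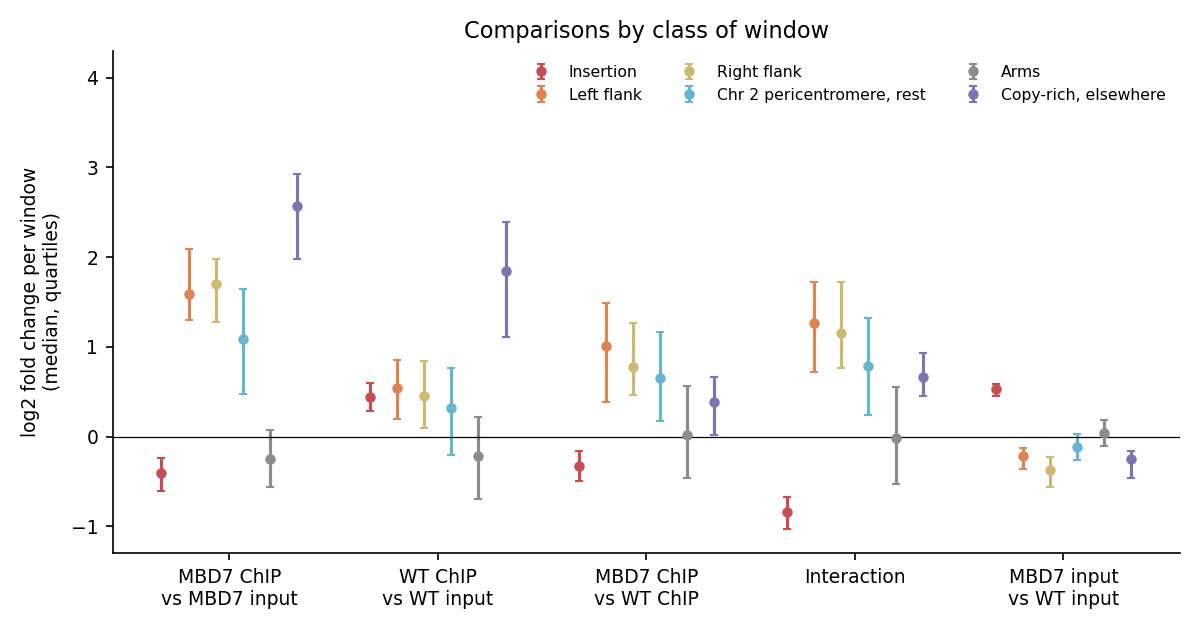
Median (point) and quartiles (line) of the log2 fold change per window class in the 5 comparisons, all from a single edgeR fit with TMM scaling. Insertion and flanks lie 2.05 apart in MBD7 ChIP against input and nearly together in WT ChIP against input.

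The tagged and untagged precipitations were compared directly next. Of the 539 insertion windows, 37 were lower and 1 was higher in MBD7 ChIP than in WT ChIP by edgeR's quasi-likelihood test, with 0.491% lower and 5.78% higher over all windows. The median log2 fold change was -0.33 in the insertion and 0.86 in the flanks, where 27 of 133 windows were higher. The count of lower windows was 13 without WT ChIP replicate 2 and 15 without MBD7 ChIP replicate 1. It was between 63 and 67 without MBD7 ChIP replicate 2 or without any of the 4 inputs, and it was 65, 86 and 183 under the 3 other scalings, 133 with only the ChIP groups fitted and 103 by DESeq2's Wald test. Relative to the median of all windows the insertion lay at -0.49.

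The interaction asks whether the precipitation changed a window differently in the tagged line than in WT. It was negative and past the threshold in 263 of 539 insertion windows and positive in 1, where 0.573% and 6.54% of all windows were called in those directions by edgeR's quasi-likelihood test. The median was -0.84 on the log2 scale in the insertion, 1.21 in the flanks with 31 of 133 higher, 0.79 in the rest of the chromosome 2 pericentromere and -0.02 in the arms. The inputs enter this term, and they alone differed by 0.52 in the insertion. The count was 140 without WT input replicate 1, 161 without WT ChIP replicate 2, 163 without MBD7 input replicate 2, 172 without WT ChIP replicate 1, and 499 when scaled by library size alone.

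Between the inputs the shift was broad and shallow. The median log2 fold change, MBD7 over WT, was 0.52 in the insertion and -0.29 in the flanks, with -0.12 in the rest of the chromosome 2 pericentromere and 0.04 in the arms. Only 3 insertion windows passed edgeR's quasi-likelihood test and 0 of 133 flank windows did, with 0.0107% of all windows higher and 0.00901% lower. The 3 windows began at 3392501 over AT2G07709 (log2 fold change 0.77 ± 0.15, SE, adjusted p = 0.0447), at 3347501 (0.77, adjusted p = 0.0438) and at 3346001 (0.76, adjusted p = 0.0477). None of the 3 remained past the threshold when an input library was left out. The number of windows called was 0 without any 1 of the 4 inputs, 48 without either WT ChIP library, and 166 and 175 without MBD7 ChIP replicates 1 and 2. It was 456 when the inputs were fitted alone, 148 by DESeq2's Wald test and 0 with DESeq2's size factors, so this count depends on the fit and the scaling.

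The ratio of MBD7 ChIP to input was not level along the insertion. In windows grouped by 10 kb, a grouping made after the values were seen and given without a test, it was 0.202 to 0.234 in the 13 groups before position 3370001 and 0.156 to 0.185 in the next 13 groups. It was 0.212 in the last one. By edgeR's quasi-likelihood test, 18 of 260 windows of the first stretch were lower in MBD7 ChIP than in input. In the second stretch 216 of 260 were lower and in the last 4 of 19, beside 6.19% of all windows. These calls concern single windows and do not test the difference between the stretches. The WT ratio was 0.0888 to 0.104 and 0.0835 to 0.102 in those stretches, and the ratio of MBD7 to WT input 1.25 to 1.37 and 1.32 to 1.45. Both MBD7 ChIP libraries showed the step. With the insertion divided at its midpoint, 3375000, left over right median counts were 147 over 110 and 169 over 137, or 1.34 and 1.23. The same quotient was 0.980 to 1.03 in the inputs and 1.05 and 1.04 in WT ChIP.

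**Figure D4:**
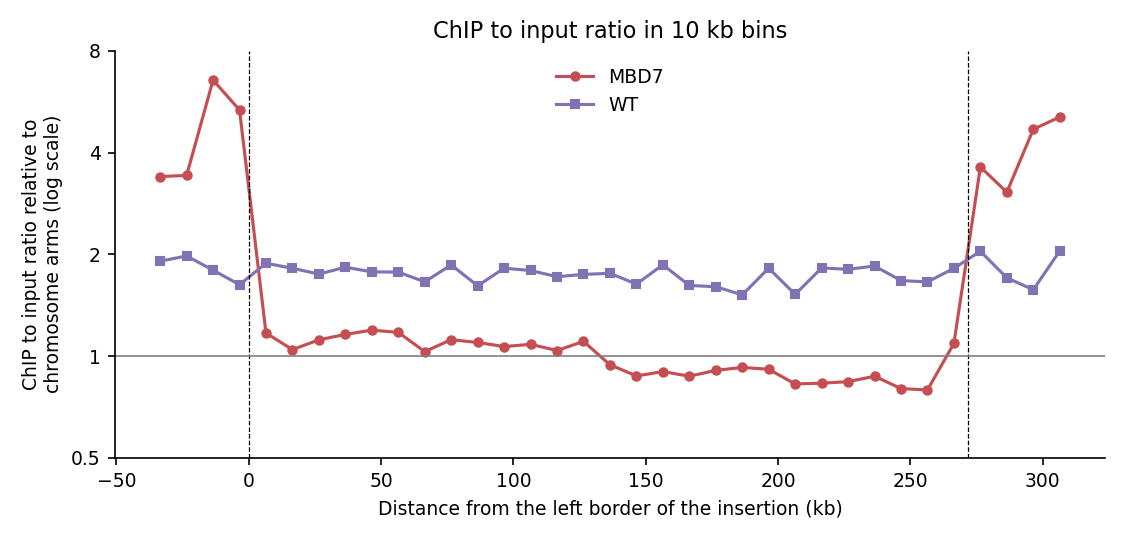
Median ratio of ChIP to input counts in groups of 10 kb, relative to the chromosome arms, against distance from the left border in kb, for MBD7 and WT. In MBD7 the 27 groups of the insertion lie between 0.794 and 1.19 and the 8 outside it between 3.05 and 6.55, whereas in WT both lie between 1.52 and 2.05.

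A single place inside the insertion behaved differently. The window 3258501 to 3259500, over the protein-coding gene AT2G07672, had the lowest input of the insertion, with 89 and 69 counts for WT and 73 and 48 for MBD7, 1.78 to 2.03 times the flank medians. It held 6 and 5 counts in WT ChIP and 61 and 69 in MBD7 ChIP. Here the raw counts of MBD7 ChIP and MBD7 input overlapped, unlike those of the insertion medians. The medians over all windows did not overlap either, with 12 and 13 counts in MBD7 ChIP and 63 and 44 in MBD7 input. Raw counts carry the depth of their libraries, and how many windows overlap in this way was not counted. The ratio of MBD7 ChIP to input was 1.07 there, against medians of 0.795 in single flank windows and 0.195 in single insertion windows. The ratio of MBD7 to WT input was 0.766, against medians of 0.774 in the flanks and 1.36 in the insertion. The WT ratio of ChIP to input was 0.0696, with medians of 0.0995 and 0.0955.

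The window was picked for its low input, and that choice in part sets a high ratio of ChIP to input. In edgeR's quasi-likelihood test that window was higher in MBD7 ChIP than in its input, with a log2 fold change of 2.06 ± 0.18 (SE, adjusted p = 1.21e-13) and higher than in WT ChIP, with 1.77 ± 0.37 (adjusted p = 6.84e-04). Its interaction was 2.07 ± 0.40 (adjusted p = 3.70e-04). WT ChIP against WT input gave -0.01 (adjusted p = 0.995) and the inputs -0.30 (adjusted p = 0.721). It was the only insertion window higher in MBD7 ChIP than in WT ChIP, and with the overlapping window at 3258001 (0.47, adjusted p = 0.0471) it made up both windows higher than MBD7 input. That neighbour held 256 and 189 counts in MBD7 input and 77 and 82 in MBD7 ChIP. Without the trimmed-mean scaling, by library size alone, the change of the first window over input was -0.0068. Its 2.06 under the trimmed-mean scaling stood beside quartiles of 1.28 and 2.02 over the flank windows.

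**Figure D5:**
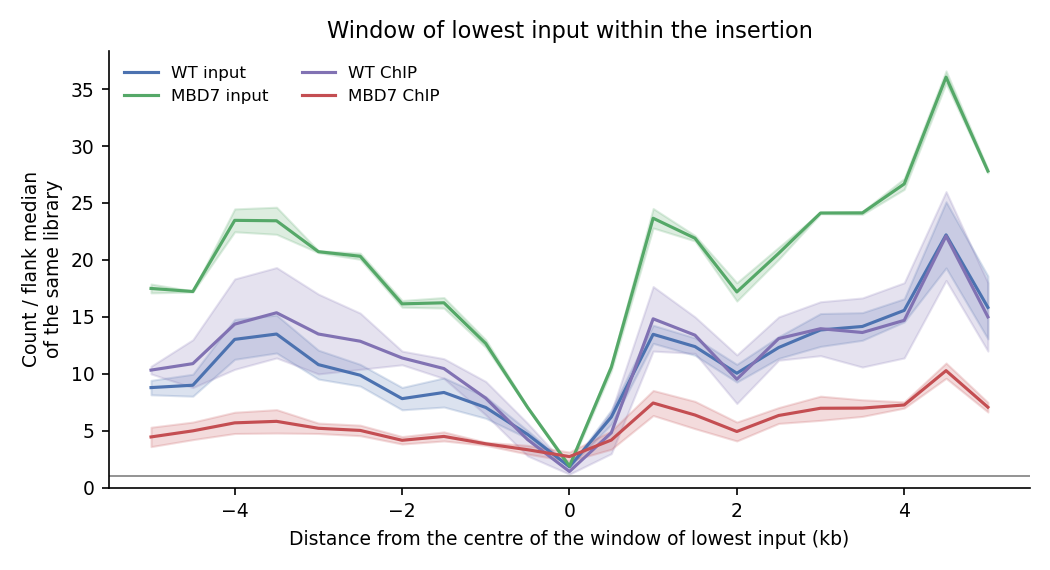
Counts over the flank median of the same library around the window of lowest input, against distance from its centre in kb; lines are the means and bands the range of 2 libraries. The inputs drop to 1.78 to 2.03 times the flanks at the centre, and MBD7 ChIP drops less than they do.

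At the other end, the deepest windows of the insertion were those at 3495501, 3299001 and 3468001. Counts at 3495501 were 1837 and 1906 for the WT inputs and 2970 and 2534 for the MBD7 inputs. It held 252 and 280 in WT ChIP and 418 and 502 in MBD7 ChIP, and was lower in MBD7 ChIP than in WT ChIP by edgeR's quasi-likelihood test (log2 fold change -1.03 ± 0.20, SE, adjusted p = 2.51e-04). The window at 3299001, over AT2G07783, held 1666 and 1159, 1944 and 1487, 192 and 226, and 483 and 613 counts in the same order. It had the largest increase of WT ChIP over WT input among the insertion windows past the threshold, 1.11 ± 0.19 (adjusted p = 3.47e-05), which was lost by library size alone. The window at 3468001, over AT2G07731 and AT2G07732, held 1200 and 1111, 2026 and 1496, 185 and 139, and 258 and 329. Next in the increase of WT ChIP over WT input came the windows at 3495001 and 3334501, with 1.07 ± 0.21 and 1.02 ± 0.24 (adjusted p = 1.85e-04 and 3.17e-03). Both increases were likewise lost by library size alone. Neither passed without WT ChIP replicate 2, and the latter did not pass without WT input replicate 1. After the window over AT2G07672, the shallowest inputs were at 3347501 and 3269001. The window at 3347501 held 189 and 168 counts for the WT inputs and 322 and 250 for the MBD7 inputs. It held 25 and 19 in WT ChIP and 56 and 61 in MBD7 ChIP. The window at 3269001, over AT2G07674, held 243 and 202, 355 and 255, 14 and 34, and 78 and 77.

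The largest decreases from MBD7 input to MBD7 ChIP lay on the right of the insertion. The window at 3445001, over AT2G07815, held 770 and 543 counts in MBD7 input and 72 and 90 in MBD7 ChIP before scaling. Its log2 fold change was -1.06 ± 0.18 (SE, edgeR's quasi-likelihood test, adjusted p = 4.81e-06). The windows at 3465001 and at 3409501, over AT2G07646, followed with -0.97 ± 0.19 and -0.95 ± 0.18 (adjusted p = 6.26e-05 and 4.01e-05). The window at 3409501 also had the largest decrease from WT ChIP to MBD7 ChIP, -1.13 ± 0.22 (adjusted p = 2.68e-04), with 86 and 73 against 98 and 155 counts before scaling. The window at 3468501, over AT2G07732, was also lower, -1.02 ± 0.20 (adjusted p = 2.75e-04). The most negative interactions were at 3495001, 3468501 and 3409501, with -1.72 ± 0.28, -1.69 ± 0.26 and -1.66 ± 0.27 (adjusted p = 2.23e-05, 5.27e-06 and 2.47e-05).

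The gene content of the insertion differs from that of its surroundings. RefSeq places 183 genes in it, among them 93 protein-coding genes, 23 tRNA genes, 27 transcribed pseudogenes and 17 other pseudogenes. The rest of the chromosome 2 pericentromere holds 1545 genes, of which 5 are tRNA genes, 584 protein-coding genes, 97 transcribed pseudogenes and 697 other pseudogenes. Transfer RNAs carry amino acids to the ribosome, and a plant mitochondrial genome encodes part of the set its organelle uses.

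A list of 22 genes of the AT2G07 series, 21 of them wholly inside the insertion, followed the insertion as a whole. Their depth over the flanks ranged from 7.70 to 19.1 in WT input (median 11.8), from 14.2 to 38.5 in MBD7 input (22.3), from 7.98 to 26.5 in WT ChIP (12.8) and from 3.74 to 8.46 in MBD7 ChIP (5.51). The deepest was AT2G07731, at 19.1 ± 2.93 in WT input, 38.5 ± 0.0278 in MBD7 input, 26.5 ± 4.43 in WT ChIP and 8.46 ± 2.63 in MBD7 ChIP (SD, n = 2). AT2G07785 stood at 7.70 ± 0.858, 14.2 ± 0.412, 7.98 ± 2.23 and 4.15 ± 1.16, the lowest of the list in all groups but MBD7 ChIP, where AT2G07727 was lowest at 3.74 ± 0.853. By edgeR's quasi-likelihood test 11 of the 22 genes had a window lower in MBD7 ChIP than in input, 7 of them in all their windows, and 0 had a higher one, where 6.19% of all windows were lower and 18.1% higher. In the interaction 18 had a lower window (0.573% of all windows), and in WT ChIP against input 13 had a higher one (5.13% of all windows). A gene spans several windows, so counts of genes and shares of windows are not on the same scale, and nothing particular to these genes is read from them, since 238 of 539 windows of the insertion around them were lower in MBD7 ChIP than in input.

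ABCI5, annotated as ATP-binding cassette I5, lies at a border, and it is the member of the list not wholly inside. A second list held 12 nuclear genes of mitochondrial proteins on other parts of the genome, such as AOX1A (alternative oxidase, which passes electrons directly to oxygen), CYTC-1 (cytochrome c, the mobile electron carrier) and COX6B (a subunit of cytochrome c oxidase). Their depth was 0.925 to 2.25 times the flanks in WT input and 1.21 to 2.92 times in MBD7 input, all below the shallowest gene of the insertion list. COX6B stood at 0.950 ± 0.114 in WT input and 1.26 ± 0.117 in MBD7 input (SD, n = 2). In the interaction 0 of the 12 had a window past the threshold in edgeR's quasi-likelihood test, and in MBD7 ChIP against input 4 had a lower and 1 a higher window, or 8 windows lower and 1 higher, beside 6.19% and 18.1% of all windows. Each of these genes also spans several windows, and nothing particular to them is read from these calls.

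The flanks are nuclear DNA with genes of their own. The right flank holds ABCC13, a transporter of the ATP-binding cassette family, and MCM5, a subunit of the helicase that unwinds DNA at replication. ABCC13 had a depth of 0.805 ± 0.0306 times the flank median in WT input and 0.784 in MBD7 input, and MCM5 1.16 ± 0.0215 and 1.20 ± 0.00119 (SD, n = 2). In MBD7 ChIP against input, 16 of 18 windows of ABCC13 and 10 of 11 of MCM5 were higher by edgeR's quasi-likelihood test, with median log2 fold changes of 1.39 and 1.13, beside 122 of 133 in the flanks as a whole and 18.1% of all windows.

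The left flank also holds a deep stretch from 3225501 to 3231000, 10 windows that include parts of the pseudogenes AT2G07650 and AT2G07660, the longest run above 5 times the flank median in every input, picked after the values were seen and described without a test of its own. It was as deep as part of the insertion, with median counts of 309 and 282 for the WT inputs, 303 and 212 for the MBD7 inputs and 43.5 and 28.5 in WT ChIP. In MBD7 ChIP the medians were 459 and 408.5, above those of every input. By edgeR's quasi-likelihood test all 10 windows, which overlap, were higher in MBD7 ChIP than in input (median log2 fold change 2.75). All 10 were also higher in the interaction (2.02), and the inputs differed by -0.16. Of all windows, 18.1% and 6.54% were higher in these comparisons. Of the 1523 copy-rich windows elsewhere, 1467 and 517 were. The median over its windows of the ratio of MBD7 ChIP to input was 1.72, against 0.795 over the windows of the flanks and 0.195 over those of the insertion.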

How the data were processed

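The deposited table holds raw counts of reads per window, whole numbers for 8 libraries, on chromosomes 1 to 5. The submitters' processing notes name Bowtie2, SAMtools, featureCounts and the build TAIR10. Versions, and how duplicates and reads with several alignments were treated, are not given in the sources used, which matters for DNA present in many copies. The table held 0 columns of other samples.

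Groups and replicate numbers came from the titles and genotype labels. All 8 libraries were fitted together in edgeR 4.0.16 under R 4.3.3 (low windows removed by filterByExpr, TMM, quasi-likelihood test, two-sided, Benjamini-Hochberg adjustment over all 232963 windows kept, threshold 0.05), and the code was tested on simulated data. DESeq2 1.42.0 served as an alternative. The scaling assumes that most windows do not change, and a fold change is measured against those. ChIP to input ratios of classes divide summed medians of unscaled counts, those of single windows divide summed counts, and each library's depth over the flanks is a ratio of medians. Counting error is largest in WT ChIP. Exact permutation tests used scipy 1.17.1.

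The chromosome 2 pericentromere was set at 1 to 7 Mb, and copy-rich windows are those over 10 times the median input level. Genes were placed with a RefSeq table of TAIR10.1, of which no coordinates are printed, and all 22 and 12 genes of both lists were matched. The lists, the windows and the bounds were chosen with earlier results of these data known. Named windows are the border windows, the 3 deepest and 3 shallowest of the insertion by mean input count, and per comparison the 3 highest and 3 lowest past the threshold. Alternatives were other scalings, no filter, DESeq2's Wald test, only the groups compared, the replicate block and leaving out each library.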

Additional observations from a re-analysis of the deposited data

Results flagged for a closer look

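The effect of the precipitation on the insertion differed between the tagged line and WT. The interaction term of edgeR's quasi-likelihood fit was past the adjusted threshold of 0.05 and negative in 263 of the 539 windows of the insertion. It was positive in 1, the window of lowest input. Of all windows, which are mostly shallower and pass the threshold less easily, 0.573% and 6.54% were called in those directions. The count was 140 without WT input replicate 1 and 161, 163 and 172 without WT ChIP replicate 2, MBD7 input replicate 2 and WT ChIP replicate 1. The median interaction was -0.84 on the log2 scale in the insertion and 1.21 in its flanks. The inputs of the genotypes differed by 0.52 in the insertion and the ChIP groups had different antibodies, and their parts in the difference were not tested.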

How the results depend on the processing

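The number of windows called depended on the scaling, which the difference between insertion and flanks cancels by construction. Scaling by library size alone gave, for MBD7 ChIP against input, 0 windows higher, 538 lower and a median of -2.47. For WT ChIP against input it gave 0 higher, 539 lower and -1.22, the direction turned. For MBD7 against WT ChIP it gave 183 lower and -0.54, for the interaction 499 lower and -1.25, and for the inputs 518 higher and 0.72. The median of all windows moves with it, to -2.15 in MBD7 and -1.74 in WT. DESeq2's size factors gave 131 higher in WT ChIP against input, 65 lower in MBD7 against WT ChIP and 0 higher between the inputs. TMM without the insertion and copy-rich windows gave 86 lower in MBD7 against WT ChIP, 6 higher between the inputs and 1 higher in MBD7 ChIP against input. DESeq2's Wald test gave 1 higher in MBD7 ChIP against input, 158 higher in WT, 103 lower in MBD7 against WT ChIP and 148 higher between the inputs, and no filter gave 1 higher in the first. Fitting only the groups compared gave 133 lower and a median of -0.62 for MBD7 against WT ChIP, and 456 higher between the inputs. The cause of these changes was not tested.

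Leaving out 1 library at a time gave 124 to 315 lower, 1 to 2 higher and medians of -0.61 to -0.35 for MBD7 ChIP against input. It gave 13 to 115 higher and 0.32 to 0.49 in WT, 13 to 67 lower and -0.44 to -0.28 for MBD7 against WT ChIP, 140 to 301 lower and -1.03 to -0.78 (-1.025 to -0.775) in the interaction, and 0 to 175 higher and 0.42 to 0.59 between the inputs.

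Replicates share only a number, and no label says what it stands for. Deviations of same-numbered libraries correlated between -0.008 and 0.039 over all windows and between -0.135 and 0.265 over the insertion. With the replicate block, 1 window was higher and 241 lower in MBD7 ChIP against input, 91 higher in WT, 1 higher and 44 lower in MBD7 against WT ChIP, 1 higher and 269 lower in the interaction, and 1 higher between the inputs.

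The depth over the flanks, with the chromosome 2 pericentromere as reference, was 9.51 in WT input and 14.4 in MBD7 input. By means in place of medians it was 6.99, 11.9, 6.24 and 2.10 in WT input, MBD7 input, WT ChIP and MBD7 ChIP. The share of counts in MBD7 input was 1.66% with narrower bounds, 3250001 to 3500000.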

Other observations

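Across the 539 windows of the insertion, which share reads, the log2 fold change of MBD7 ChIP over input followed position with a Spearman rho of -0.697 and the depth of the input with -0.044. In WT the values were -0.0989 and 0.157. These are descriptions of 1 region, and no test was run on them.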
